A study of Mus musculus with 7 samples.

Results

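Antisense transcripts start within or close to another gene and are read from its opposite strand, and bidirectional promoter transcripts start beside a coding gene's promoter and run away from it. Every transcript of mouse pancreatic islet cells that GENCODE M21 annotates as antisense or as bidirectional_promoter_lncRNA was taken, and its level was set beside that of the nearest protein-coding gene. This gave 3167 of the 69994 transcripts in the tables: 2912 antisense (64.6% of the 4511 annotated) and 255 bidirectional (78.0% of the 327 annotated), from 2461 genes. The series holds 7 islet single-cell samples in 4 groups, and the transcript tables cover 1 group, a pair of libraries here called replicate 1 and replicate 2. Both came from islets of female C57BL/6 mice aged 10 weeks, dissociated with Accutase and loaded for 4000 cells. They were made with a 10x 5′ kit under a modified protocol, with added dNTP and longer extension (2 h and 3 min), then depleted of insulin cDNA with Cas9 and read as full-length cDNA on Nanopore. There was no treatment or genotype contrast, so levels were compared between the cell types that the authors assigned.

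Long noncoding RNAs of these classes are known in several modes. Some act in cis on the gene they overlap, as Airn and Kcnq1ot1 do at imprinted loci, where transcription from 1 parental allele silences neighbouring genes. Others are short-lived products of promoters that fire in both directions, and many have no known function. In islets, Plut (PLUTO in humans), which runs antisense beside Pdx1, is known to promote transcription of that beta cell regulator.

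The tables held 4814 cells with a cell type in replicate 1 (9509266 transcript UMIs, median 1831.5 per cell) and 1093 in replicate 2 (10807831 UMIs, median 8834), and 5 of the 5907 barcodes occurred in both. A UMI tags 1 captured cDNA molecule, so levels are CPM, UMIs scaled to 1000000 transcript UMIs of a library and cell type, with no division by length. Values given in pairs are replicate 1, then replicate 2. The authors' labels mostly held up against their markers: 9 of 9 beta markers, 6 of 7 alpha, 3 of 3 PP, 5 of 5 endothelial and 6 of 6 stellate markers were highest in their own type in each library, and delta markers were so for 4 of 4 and 3 of 4. Hormone UMIs also occurred outside their own type (Gcg was at 4535 and 730 CPM on the gene table in endothelial cells). In cells named delta, Gcg was at 18811 and 21335 on that table, Ppy at 18976 and 25286 and the beta cell gene Iapp at 46665 and 41933. Among the endothelial clusters, cluster 15 went against its label: the endothelial genes Pecam1 and Cdh5 were at 0 there in both libraries, while the duct marker Krt19 was at 942 and 1126 CPM, Krt18 at 1853 and 4677, Epcam at 1185 and 914 and Sox9 at 395 and 364. Cluster 11 had Krt19 and Sox9 at 0 and Cdh5 at 697 and 453. Cluster 15 made up 12 of 141 and 16 of 26 endothelial cells and 19.3% and 83.0% of their UMIs, so the class named endothelial held different cells in the 2 libraries. Cluster 16, which the authors placed with delta cells, had Sst at 0 and 41.9 CPM, against 176181 and 122598 in delta cluster 3. Delta cluster 14 had Sst at 23004 and 6998, below Iapp at 77966 and 71015. Delta cluster 7 had Sst at 37403 and 97307 and Iapp at 52508 and 29315, so Iapp was the higher in replicate 1 only. The labels do not say whether the libraries came from separate mice. The p-values set the size of a type difference against a spread estimated from all 12 sums, once the libraries' shared difference is removed. Estimates of that spread borrow from all transcripts tested. The p-values are no measure of a known spread between mice. Because the types were themselves clustered from these cells' RNA, the tests describe how the types differ and are not independent of them. The sources used here do not say whether counting used strand, so reads of a member and of its opposite-strand partner cannot be told apart where their exons overlap.

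The sequences printed here are those of loci the comparisons turn on. For 5 divergent pairs, the 250 bases before the coding gene's start are shown 5′ to 3′ on the coding strand (RefSeq, GRCm38.p6), with the bases between the start of the coding gene (RefSeq) and that of the noncoding RNA (GENCODE M21) in capitals. Gjd2 encodes the beta cell gap junction protein connexin 36, and its start faced that of A530058N18Rik-203 across 90 bases. Pcsk2 encodes a prohormone convertase, Pik3c2a a class II phosphoinositide 3-kinase, Pigb an enzyme of GPI anchor synthesis, and Hand2 a transcription factor of sympathetic neurons and mesenchyme. The sequences lie at chr2:114013620-114013869 (−), chr2:143545883-143546132 (+), chr7:116443459-116443708 (−), chr9:73039700-73039949 (−) and chr8:57320733-57320982 (+).
Gjd2, facing A530058N18Rik-203: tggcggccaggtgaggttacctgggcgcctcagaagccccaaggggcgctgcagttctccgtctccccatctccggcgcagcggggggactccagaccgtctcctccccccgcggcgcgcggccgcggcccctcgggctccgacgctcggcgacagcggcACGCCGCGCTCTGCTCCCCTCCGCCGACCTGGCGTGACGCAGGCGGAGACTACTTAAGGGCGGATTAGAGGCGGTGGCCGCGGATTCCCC
Pcsk2, facing Pcsk2os1-202: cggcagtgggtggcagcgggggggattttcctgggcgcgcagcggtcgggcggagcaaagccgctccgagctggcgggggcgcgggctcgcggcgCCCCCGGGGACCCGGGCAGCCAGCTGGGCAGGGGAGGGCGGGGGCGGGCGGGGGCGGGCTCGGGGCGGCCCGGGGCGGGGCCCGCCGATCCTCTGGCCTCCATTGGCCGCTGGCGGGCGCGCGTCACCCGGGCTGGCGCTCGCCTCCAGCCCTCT
Pik3c2a, facing AV356131-201: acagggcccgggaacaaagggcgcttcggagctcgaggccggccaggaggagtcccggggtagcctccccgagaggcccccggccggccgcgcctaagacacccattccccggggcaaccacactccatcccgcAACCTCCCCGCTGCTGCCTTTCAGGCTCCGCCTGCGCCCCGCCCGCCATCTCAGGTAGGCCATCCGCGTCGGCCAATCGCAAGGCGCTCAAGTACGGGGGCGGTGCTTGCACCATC
Pigb, facing 2310009A05Rik-201: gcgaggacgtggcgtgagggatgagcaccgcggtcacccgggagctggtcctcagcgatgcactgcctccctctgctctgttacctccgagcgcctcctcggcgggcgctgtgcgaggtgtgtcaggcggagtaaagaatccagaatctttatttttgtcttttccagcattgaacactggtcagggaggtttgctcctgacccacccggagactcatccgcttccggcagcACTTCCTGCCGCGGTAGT
Hand2, facing Hand2os1-210: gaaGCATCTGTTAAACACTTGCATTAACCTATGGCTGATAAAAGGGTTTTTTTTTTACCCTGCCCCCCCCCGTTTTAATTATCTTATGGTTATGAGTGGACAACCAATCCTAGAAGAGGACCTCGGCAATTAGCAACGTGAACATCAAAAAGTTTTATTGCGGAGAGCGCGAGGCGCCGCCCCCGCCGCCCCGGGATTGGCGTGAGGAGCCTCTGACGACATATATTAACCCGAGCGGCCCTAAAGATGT

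For 3 antisense RNAs that overlap their neighbour, the 250 bases before their own RefSeq start are shown on their own strand with each CG in capitals. Plut (chr5:147271522-147271771, −) and Pax6os1 (chr2:105670331-105670580, −) are the partners of the transcription factor genes Pdx1 and Pax6, and Gm15418 (chr8:11187479-11187728, +) is that of Col4a1, a basement membrane collagen gene.
Plut: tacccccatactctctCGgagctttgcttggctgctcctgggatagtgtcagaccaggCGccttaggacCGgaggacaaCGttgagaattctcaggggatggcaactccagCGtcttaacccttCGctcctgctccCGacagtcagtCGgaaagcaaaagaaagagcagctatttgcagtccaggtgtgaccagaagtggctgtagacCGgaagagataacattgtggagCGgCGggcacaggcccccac
Pax6os1: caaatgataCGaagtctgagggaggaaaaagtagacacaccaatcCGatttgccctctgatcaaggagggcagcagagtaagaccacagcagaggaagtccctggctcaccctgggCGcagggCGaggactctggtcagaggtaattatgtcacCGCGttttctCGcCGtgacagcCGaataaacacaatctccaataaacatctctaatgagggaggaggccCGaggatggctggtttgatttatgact
Gm15418: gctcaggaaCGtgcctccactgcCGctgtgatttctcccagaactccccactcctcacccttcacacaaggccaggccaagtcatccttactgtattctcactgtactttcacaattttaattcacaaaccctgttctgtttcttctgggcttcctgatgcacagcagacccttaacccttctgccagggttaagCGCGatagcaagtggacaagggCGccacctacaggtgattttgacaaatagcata

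The splice junctions printed next are those of annotated models, and reads that cross them were not counted here. For 9 members the last 60 bases of exon 1 (lower case) and the 60 bases that follow in the spliced RNA (capitals) are shown from GENCODE M21 models on GRCm38, for RNAs whose levels are described in the comparisons and whose printed bases overlap no coding exon. The capitals are all of exon 2, except that exon 3 follows after 42 bases in A530058N18Rik-203 and after 53 in C430014B12Rik-201.
Plut-202: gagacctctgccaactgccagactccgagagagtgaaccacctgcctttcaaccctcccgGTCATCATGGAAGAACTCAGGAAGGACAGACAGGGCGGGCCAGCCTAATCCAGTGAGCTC
Pax6os1-202: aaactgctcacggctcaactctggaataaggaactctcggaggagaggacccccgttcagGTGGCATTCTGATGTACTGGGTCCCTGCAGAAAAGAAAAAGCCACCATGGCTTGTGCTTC
Pcsk2os1-202: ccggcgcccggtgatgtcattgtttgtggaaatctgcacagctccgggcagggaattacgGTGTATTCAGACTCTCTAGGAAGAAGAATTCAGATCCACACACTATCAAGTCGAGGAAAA
A530058N18Rik-203: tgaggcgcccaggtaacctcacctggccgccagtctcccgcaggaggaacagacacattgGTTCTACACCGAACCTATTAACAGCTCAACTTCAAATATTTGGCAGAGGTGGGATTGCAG
2410021H03Rik-201: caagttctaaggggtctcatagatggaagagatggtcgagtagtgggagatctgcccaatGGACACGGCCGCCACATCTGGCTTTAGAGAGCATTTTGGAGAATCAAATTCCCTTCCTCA
Gm15418-201: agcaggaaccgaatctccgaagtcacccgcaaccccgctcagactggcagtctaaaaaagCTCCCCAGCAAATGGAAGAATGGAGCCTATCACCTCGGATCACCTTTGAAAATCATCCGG
Gm36172-201: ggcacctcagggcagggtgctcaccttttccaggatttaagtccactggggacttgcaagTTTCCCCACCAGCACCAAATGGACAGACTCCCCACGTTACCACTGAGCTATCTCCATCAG
C430014B12Rik-201: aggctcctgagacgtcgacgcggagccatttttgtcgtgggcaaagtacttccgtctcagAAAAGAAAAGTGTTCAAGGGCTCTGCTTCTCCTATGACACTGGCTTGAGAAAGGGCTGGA
Gm15564-202: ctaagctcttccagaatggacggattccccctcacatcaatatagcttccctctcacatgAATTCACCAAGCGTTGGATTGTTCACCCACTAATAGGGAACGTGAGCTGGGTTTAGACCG

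The 2 annotation classes sat differently against their coding neighbours. Of the bidirectional transcripts, 220 (86.3%) were head to head with the neighbour, meaning on the opposite strand with starts within 1000 bp. Distances between starts are to the nearest annotated start of any coding transcript of the neighbour, which need not be the gene's outermost one. Of the antisense transcripts, 907 (31.1%) were head to head and 1812 (62.2%) overlapped the neighbour on the opposite strand farther from its start. Among the 1127 head-to-head members, 531 had starts that lay apart, with a median gap of 129 bp (433 of them within 300 bp), and in 596 the 5′ ends overlapped. The divergent form made up 167 of the 220 bidirectional transcripts and 364 of the 907 antisense transcripts, with median gaps of 126 and 130 bp. The spliced length had a median of 888 nt over a median of 2 exons, and 291 members had a single exon. Exons of 1529 members (48.3%) overlapped a coding exon on the opposite strand, 50.0% of antisense and 29.0% of bidirectional transcripts.

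**Figure D1:**
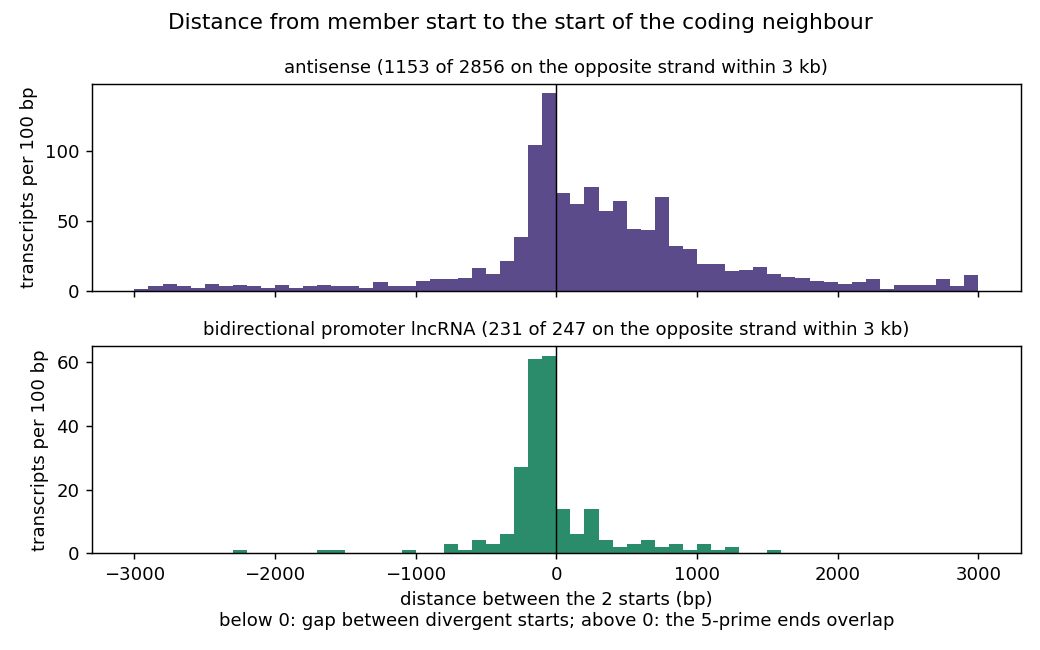
Distance in bp between the start of a member and the start of its coding neighbour on the opposite strand, counted per 100 bp for antisense (top, 1153 of 2856 within 3 kb) and bidirectional transcripts (bottom, 231 of 247 within 3 kb). Bidirectional starts pile up just below 0, where the starts lie apart and point away from each other, while antisense starts also spread above 0, where the 5′ ends overlap.

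RefSeq promoter windows (250 bases before to 50 after a start, GRCm38.p6) matched 868 of 2277 antisense genes, 92 of 184 bidirectional genes and 674 of 859 coding neighbours of head-to-head members, out of 27025 promoters. Bidirectional genes had a median GC content of 66.0% and the coding neighbours 62.3%, against 52.0% for antisense genes and 52.7% for all promoters. A ratio of observed to expected CpG above 0.6 was found in 82.6% of bidirectional, 72.7% of neighbour, 28.3% of antisense and 36.4% of all windows. The letters TATAAA, searched on both strands like every motif here, occurred in 1.09% of bidirectional windows (1 of 92), 7.57% of neighbour, 10.8% of antisense and 14.2% of all windows. GGGCGG, the GC box bound by Sp1, occurred in 63.0% of bidirectional and 64.8% of neighbour windows against 35.9% of all, and CCGGAAGT, an ETS factor motif, in 14.1% (13 windows) and 7.12% against 4.00%. CCAAT occurred in 38.0% of bidirectional and 37.9% of all windows. The NRF1 core CGCATGCG was in 4.35% of bidirectional windows (4) against 1.91% of all, and the YY1 core AAGATGG in 6.52% against 6.48%. The printed Pcsk2 stretch held GGGCGG at 7 places and the Gjd2 stretch at 1, while the Pik3c2a stretch held it at 2 and CCAAT at 1. Bidirectional starts that lay apart from the coding start did so by a median of 126 bp, so windows of such a pair share bases. The bidirectional and neighbour figures are therefore not independent of each other. These counts are descriptions of the letters in the windows.

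Most members were rare. Over all kept cells, 243 had no UMI, 1346 had at least 10, 261 at least 100 and 10 at least 1000, and the median member had 7 UMIs (6 for antisense, 18 for bidirectional). Together they gave 152373 UMIs, 0.842% of the transcript UMIs of replicate 1 and 0.669% of those of replicate 2. A single transcript, Gm15564-202, supplied 27.7% and 16.6% of these. Its RNA is a 402 nt antisense transcript of 4 exons (chr16:35966753-35983230, −) that starts 85 bp from an annotated internal start of the nuclear import gene Kpna1, and 28 of its 378 words of 25 bases also occur in Lars2-201, so reads could be split between them. Whether its bases also match ribosomal RNA was not tested, so its level may not be that of an antisense RNA alone.

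Beta cells gave members the largest share of their UMIs in each library, 0.921% and 0.808%. Cells named delta gave 0.910% and 0.661%, alpha cells 0.731% and 0.548%, stellate cells 0.617% and 0.552%, and PP cells 0.554% and 0.476%. Endothelial cells differed most between libraries, at 0.889% and 0.396%, with 0.924% and 0.439% in cluster 11 and 0.741% and 0.387% in cluster 15, and macrophages, with 62 and 7 cells, were at 0.442% and 0.268%. Without Gm15564-202 beta cells were at 0.669% and 0.675%, delta cells at 0.677% and 0.569%, alpha cells at 0.485% and 0.411% and PP cells at 0.444% and 0.420%, so the first place of beta cells held in replicate 2 and passed to delta cells in replicate 1. The bidirectional transcripts alone took 0.119% in beta cells in both libraries and 0.107% and 0.0986% in delta cells. They were lower in PP cells (0.0790% and 0.0837%), alpha cells (0.0750% and 0.0748%), endothelial cells (0.0621% and 0.0521%) and stellate cells (0.0578% and 0.0519%), and the endocrine and non-endocrine ranges did not overlap. With 2 libraries no test was made of these shares.

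**Figure D2:**
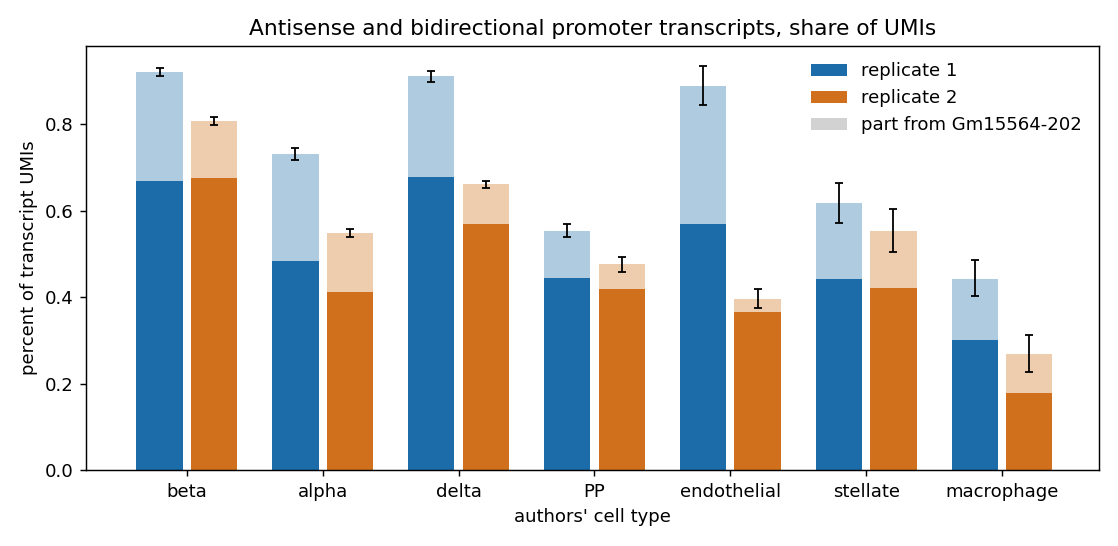
Percent of transcript UMIs that came from antisense and bidirectional promoter transcripts, by the authors' cell type and library. Pale parts are Gm15564-202 and error bars are exact binomial 95% intervals of the whole bar, which cover counting error only. Beta cells stand at 0.921% and 0.808%, and the libraries lie farthest apart in endothelial cells.

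Within a type the share moved with the cluster. Beta cluster 4, with medians of 1256 and 5509.5 UMIs per cell, gave 1.16% and 1.07%, against 0.865% and 0.763% in beta cluster 0 (medians 2359.5 and 9140). Delta cluster 7, with medians of 681 and 4836 UMIs, gave 1.81% and 1.18%, against 0.772% and 0.632% in delta cluster 3 (medians 1824 and 8294). Beta cluster 4 and delta cluster 7 thus had lower depth and higher shares in both libraries. Depth and share did not go together in every pair. Delta cluster 8, with medians of 3089 and 13874, gave 0.857% and 0.740%, above the shallower delta cluster 3 in both libraries. The part of depth in these shares was not tested.

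Most members were far less abundant than the gene beside them. Where the neighbour had at least 50 UMIs in a library, the median member reached 2.03% of its neighbour's level in replicate 1 (1863 members) and 1.87% in replicate 2 (1834 members), and the 90th percentile was 26.5% and 26.7%. Head-to-head members had medians of 3.17% and 3.35%, overlapping ones 1.72% and 1.53%. The count of members above their neighbour covers all 3167, of which 241 in replicate 1 and 220 in replicate 2 had a neighbour without UMIs. Counted so, 402 members in replicate 1 and 429 in replicate 2 exceeded their neighbour.

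Several of the most abundant members were among these. Gm45606-201, beside the amino acid transporter gene Slc43a2, had 83.6 and 86.3 CPM in beta cells against 10.2 and 9.56 for Slc43a2, and 922 bases of its exons overlap coding exons. 2310009A05Rik-201 had 45.9 and 83.4 in beta cells against 9.32 and 12.8 for Pigb, across the 18 capital bases printed above. AV356131-201 had 60.2 and 44.4 against 9.53 and 11.2 for Pik3c2a, and Gm17251-201 had 41.2 and 38.3 against 6.72 and 4.78 for the vesicle trafficking gene Rab11b. In each of these 4 pairs the noncoding RNA was the higher transcript in both beta cell libraries. Kcnq1ot1-201, the antisense RNA of the imprinted Kcnq1 locus, was at 135 and 179 in beta cells while Kcnq1 was at 0.217 and 0. Endothelial cells had both, with Kcnq1ot1-201 at 99.6 and 80.2 and Kcnq1 at 58.6 and 77.1. Kcnq1 rested on 7 and 1 UMIs in cluster 11 (50.8 and 18.1 CPM) and on 3 and 24 in cluster 15 with its duct markers (91.2 and 89.1). Snhg9-201 showed the opposite order, with 40.3 and 62.2 in beta cells beside 3814 and 3108 for the ribosomal protein gene Rps2, which starts 98 bp away. 2900093K20Rik-201 (68.7 and 94.6) and its neighbour Oser1 (48.8 and 45.7) were of like abundance.

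**Figure D3:**
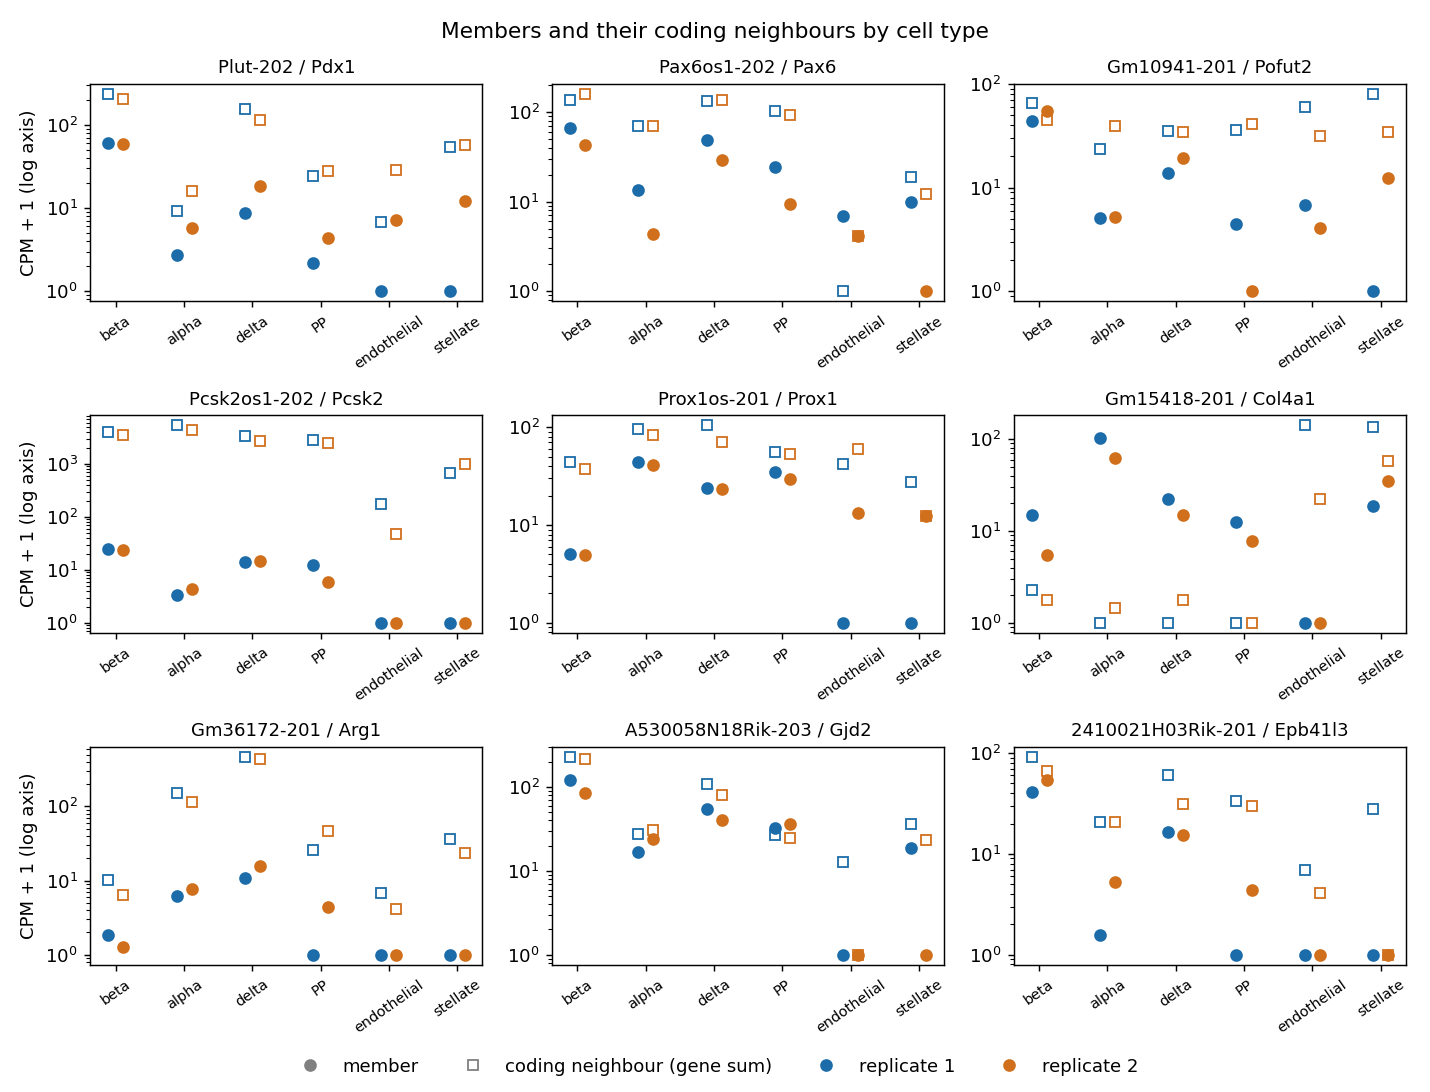
Levels of 9 members (filled) and of their coding neighbours (open squares) by cell type, in CPM plus 1 on log axes, with replicate 1 in blue and replicate 2 in orange. Plut-202 and Pdx1 are both highest in beta cells (59.6 and 57.4 for Plut-202), whereas Gm15418-201 peaks in alpha cells and Col4a1 in endothelial and stellate cells.

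Alpha cells make glucagon and beta cells insulin, and their comparison asked which of these noncoding RNAs separate the types. Of the 316 members with enough UMIs to be tested, 20 were higher and 35 lower in alpha cells (6.33% and 11.1%; edgeR quasi-likelihood test, adjusted p under 0.05). Over all 14073 transcripts tested the figures were 8.21% higher and 8.53% lower, and the median log2 fold change was -0.07 for members (-0.05 with members at 0 UMIs in a type set to their bound) and 0.02 for all. Of the neighbours of tested members, 18 of 235 were higher and 26 lower, beside 8.12% and 9.22% of 11237 gene sums. Without TMM scaling the median of all transcripts moved to -0.48 and the split of members became 12 higher and 79 lower. Of all 14073 transcripts, 644 were then higher and 3334 lower. Without the library as a block 28 members were called, without alpha replicate 1 31 and without alpha replicate 2 34.

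The members lower in alpha cells included partners of beta cell regulators. Plut-202 (chr5:147228596-147271521, −, 6 exons) was at 59.6 and 57.4 CPM in beta cells, 1.76 and 4.71 in alpha cells, 7.72 and 17.6 in delta cells and 1.16 and 3.37 in PP cells. Its level in beta cells lay above every other type in both libraries, and the log2 fold change in alpha cells was -3.69 ± 0.41 (SE, adjusted p = 1.5e-11), beside -3.73 for Pdx1. Pax6os1-202 (chr2:105536080-105670330, −) was at 65.0 and 42.0 in beta cells and 12.3 and 3.30 in alpha cells, a change of -2.33 ± 0.34 (adjusted p = 8.5e-08). Pax6 itself, a regulator of all islet endocrine cells, was at 136 and 159 in beta and 69.1 and 68.3 in alpha cells, a change of -0.61 that did not pass (adjusted p = 0.053). A530058N18Rik-203, which faces Gjd2 across the stretch printed above, was at 119 and 83.7 in beta and 15.8 and 23.1 in alpha cells. It changed by -1.83 ± 0.27 (adjusted p = 1.8e-07) and Gjd2 by -2.47.

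At the loci of 2 receptor genes both partners were close to 0 in alpha cells. Gm37035-201, a single-exon RNA over the purinergic receptor gene P2ry1, had 11.3 and 11.4 CPM in beta cells and no UMI in alpha cells, at least 14.5-fold lower. P2ry1 was at 49.0 and 30.6 in beta and 0 and 0.943 in alpha cells, and 992 bases of the RNA overlap its exons, so the pair cannot be told apart without strand. Gm11789-202, head to head with the glucagon receptor gene Gcgr and free of coding exon overlap, was at 9.53 and 21.8 in beta cells and 0 and 0.471 in alpha cells, a ratio of 57.6 (95% counting interval 10.1 to 2292). Its isoform Gm11789-203 had no alpha cell UMI (at least 12.6-fold lower), and Gcgr fell by 4.98 on the log2 scale. Members and neighbour were in each case on the same side.

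Other members fell in alpha cells where the neighbour did not pass or changed less. Pcsk2os1-202 (chr2:143537970-143545977, −), which starts 179 bp from Pcsk2, was at 23.4 and 22.8 in beta and 2.34 and 3.30 in alpha cells, a change of -2.49 ± 0.48 (adjusted p = 4.4e-05). Pcsk2 was at 4011 and 3517 in beta and 5376 and 4302 in alpha cells (0.86, adjusted p = 0.051), so the point estimates had opposite signs. The longer isoform Pcsk2os1-201 was at 96.0 and 91.4 in beta and 56.8 and 42.4 in alpha cells and did not pass (-0.42 ± 0.24, adjusted p = 0.27). Gm10941-201 starts within 5 bp of Pofut2, which encodes a protein O-fucosyltransferase. Its levels were 42.7 and 53.4 in beta and 4.10 and 4.24 in alpha cells (-3.03 ± 0.40, adjusted p = 4.3e-09), while Pofut2 at -0.30 did not pass. Dtnbos-201, inside the dystrobrevin gene Dtnb, was at 81.9 and 44.1 in beta and 4.10 and 5.18 in alpha cells (-3.14 ± 0.37), and Dtnb at -0.58 did not pass. 2410021H03Rik-201, antisense in the membrane skeleton gene Epb41l3, was at 39.9 and 52.9 in beta and 0.586 and 4.24 in alpha cells (-3.69 ± 0.45), beside -1.44 for Epb41l3. Gm44850-201, antisense in the integrin gene Itgad, was at 38.6 and 45.4 in beta and 1.17 and 2.36 in alpha cells (-4.01 ± 0.48), while Itgad had at most 0.266 in any endocrine type.

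Members higher in alpha cells were led by RNAs at Prox1 and Col4a1. Prox1os-201 (chr1:190170296-190217276, +), whose 5′ end overlaps that of the homeobox gene Prox1 by 384 bp, was at 4.12 and 3.98 in beta cells, 43.4 and 39.6 in alpha, 22.6 and 22.3 in delta and 33.7 and 28.6 in PP cells. Beta cells were the lowest endocrine type in both libraries, with a change of 3.84 ± 0.35 in alpha cells (adjusted p = 3.6e-15) beside 1.66 for Prox1. Gm28172-201, beside another annotated start of Prox1, was at 6.93 and 9.03 in beta and 22.9 and 18.4 in alpha cells (1.87 ± 0.35). Gm15418-201 (chr8:11187755-11204503, +) was at 13.9 and 4.52 in beta cells and 101 and 60.8 in alpha cells, a change of 3.69 ± 0.29 (adjusted p = 1.7e-17). Col4a1 had at most 1.30 in alpha and beta cells and 141 and 21.6 in endothelial cells, where Gm15418-201 had no UMI. Gm36172-201, divergent from the arginase gene Arg1 at 135 bp, was at 0.867 and 0.266 in beta and 5.27 and 6.60 in alpha cells (3.62 ± 0.76, adjusted p = 0.00016), beside 4.64 for Arg1. Airn-201, the antisense RNA of the imprinted Igf2r locus, was at 5.63 and 5.58 in beta and 16.4 and 11.3 in alpha cells (1.80 ± 0.43, adjusted p = 0.0011) and lost its call without replicate 1 of either type. Igf2r at -0.37 did not pass.

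**Figure D4:**
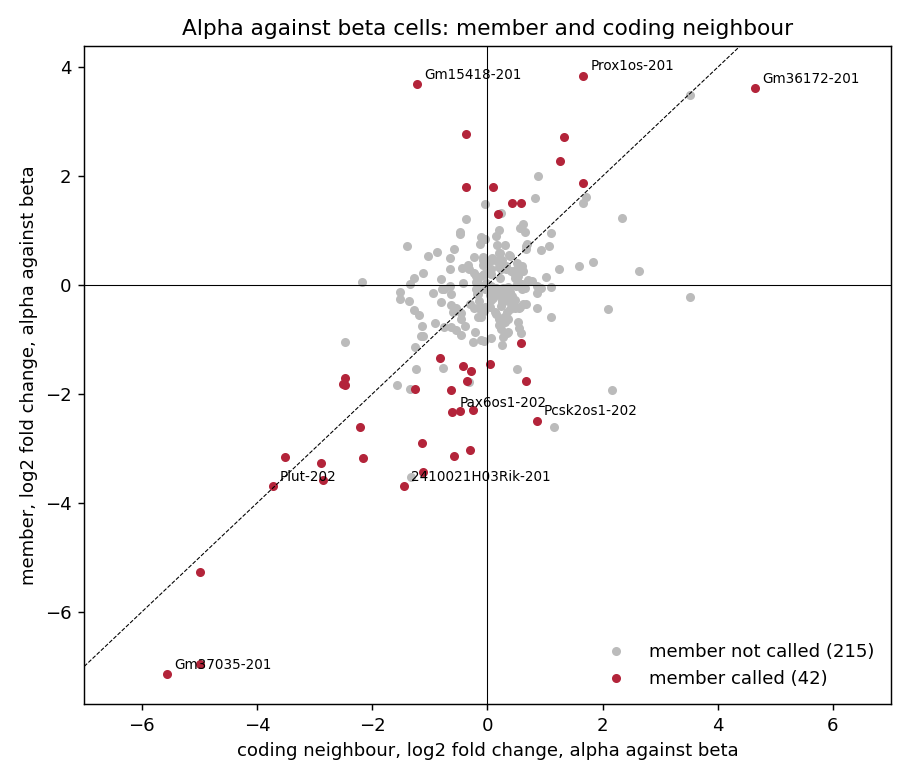
Fitted log2 fold change in alpha against beta cells of 257 members (vertical) and of their coding neighbours (horizontal), both on the edgeR scale, with the 42 members past the threshold in red and a dashed line of equal change. Plut-202 lies near the line (-3.69 and -3.73 for Pdx1), Gm15418-201 at 3.69 stands to the left of 0, and Pcsk2os1-202 at -2.49 to the right, and the 3 lowest points belong to members with at most 1 alpha cell UMI, whose fitted values are no bounds.

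Where both a member and its neighbour passed in alpha cells, they passed in the same direction. Of the 35 members lower in alpha cells, 30 had a tested neighbour, which was lower for 14 of them and higher for 0. Of the 20 higher members 12 had a tested neighbour, which was higher for 3 and lower for 0. These are counts of members, and members that share a neighbour count separately, so Prox1, Gjd2 and Gcgr each enter more than once. Over 257 pairs Pearson's r between their log2 fold changes was 0.64 and Spearman's rho 0.39, a description across genes that share the same libraries, and the share of pairs with the same sign was 56.8%. The pairs include members whose exons overlap the neighbour's and members that share a neighbour.

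Delta cells make somatostatin. Against beta cells, 19 of 316 tested members were higher and 20 lower (6.01% and 6.33%), beside 7.52% and 4.27% of all transcripts. Among the neighbours 15 were higher and 15 lower, beside 8.38% and 4.71% of gene sums, and the median log2 fold change was -0.01 for members and 0.03 for all transcripts. These counts moved with the settings: 13 members were called without the library block, 19 and 20 without beta replicate 1 or 2, 12 and 9 without delta replicate 1 or 2, and 15 by DESeq2. Without cluster 16, 35 were called.

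The members higher in delta cells were led by RNAs of low level. A830011K09Rik-201, which starts 106 bp from the LIM-only gene Lmo3, was at 14.4 and 9.60 in delta cells against 0.217 and 0 in beta. The pooled ratio was 93.9, with a 95% interval for counting error from 16.3 to 3767, and Lmo3 was at 13.9 and 5.71 in delta and 0.217 and 0 in beta cells. Nespas-201 is an imprinted antisense RNA of Gnas, the gene of the stimulatory G protein alpha subunit. It was at 11.3 and 10.6 in delta cells, 0.433 and 0 in beta cells and 0 in alpha cells, a delta to beta ratio of 45.5 (12.1 to 384). Gnas was at 972 and 793 in delta, 670 and 666 in alpha and 270 and 163 in beta cells. Gnas was thus raised in alpha cells (log2 fold change 2.17) without any Nespas-201 UMI there. Coding exons overlap 988 bases of Nespas-201, so its reads and those of the overlapping exons cannot be told apart without strand. Gm14964-202, within the neurexin gene Nrxn2, was at 25.7 and 25.9 in delta and 3.03 and 1.33 in beta cells (3.59 ± 0.44, adjusted p = 5.35e-10). Gm36172-201 was at 9.78 and 14.5 in delta cells (4.21 ± 0.66), and Arg1 rose from 9.32 and 5.31 in beta to 462 and 429 in delta cells. Gm11417-201, antisense in the ion channel gene Asic2, was at 42.2 and 8.04 in delta and 3.47 and 0.531 in beta cells (3.63 ± 0.49), with the libraries far apart in each type.

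Hand2os1-213 also passed in delta cells, but its UMIs there came from cluster 16. All 7 delta UMIs of Hand2os1-213 in replicate 1 and 33 of 35 in replicate 2 lay in the 7 and 7 cells of that cluster, where the growth cone gene Gap43 was at 2179 and 1874 CPM. Without cluster 16 the log2 fold change was 2.10 (adjusted p = 0.47). Stellate cells had Hand2os1-213 at 26.7 and 180, and alpha, beta, PP and endothelial cells had none.

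Among the members lower in delta cells, Plut-202 changed by -2.16 ± 0.31 (adjusted p = 4.2e-08), more than Pdx1 at -0.71 (237 and 207 in beta, 154 and 114 in delta cells). Plut-202 stood at 7.72 and 17.6 in delta cells, between the alpha and the beta values in both libraries. Of its delta-class UMIs, 12 of 15 and 52 of 68 lay in cluster 8, at 22.8 and 47.2 CPM, against 0 and 4.01 in cluster 3. Cluster 8 had Sst at 67503 and 50331 CPM and the beta cell gene Iapp at 98217 and 76483, against 39640 and 40982 for Iapp in cluster 3. Without cluster 8 the change was -3.74 (adjusted p = 6.6e-14). 1810034E14Rik-201, 58 bp from the phosphatase gene Cdc14b, was at 19.9 and 14.6 in beta and 5.15 and 3.63 in delta cells (-1.93 ± 0.43), and lost its call without either delta library. A530058N18Rik-203 changed by -1.09 ± 0.24 and Gjd2 by -1.22. Of the 20 lower members, 16 had a tested neighbour, which was lower for 8 members and higher for 0. Of the 19 higher ones 12 did, and it was higher for 7 members and lower for 0.

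PP cells make pancreatic polypeptide. Here 11 of 316 members were higher and 37 lower than in beta cells (3.48% and 11.7%), beside 7.62% and 9.62% of all transcripts. The median log2 fold change was -0.33 for members (-0.28 with zeros at their bound) against -0.05 for all, and 15 neighbours were higher and 37 lower, beside 8.27% and 9.56% of gene sums. Without TMM scaling the median of all transcripts was -0.33 and the split of members 4 higher and 56 lower. Of all 14073 transcripts, 760 were then higher and 2153 lower. The count was 22 without the library block, 18 and 24 without PP replicate 1 or 2, and 26 without beta replicate 2. PP cells held 859503 and 593742 UMIs against 4615206 and 3764227 in beta cells. The filter for testing asks for a minimum of UMIs, which the smaller PP sums reach less easily. Of the 316 tested members, 20 had no PP UMI and 7 no beta UMI. The split into higher and lower is thus not independent of which members could be tested.

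Plut-202 and several other RNAs of beta cells were low in PP cells, in a comparison that shares the beta cell libraries with the others. Plut-202 was lower than in beta cells by a ratio of 28.4 (95% counting interval 9.66 to 138), beside a log2 fold change of -2.84 for Pdx1. Gm10941-201, at 3.49 and 0 in PP cells, was lower by a ratio of 23.0 (7.82 to 112) while Pofut2 at -0.22 did not pass. 5033421B08Rik-202, antisense to the transporter-family gene Slc7a15, had 31.2 and 18.6 in beta cells and no PP cell UMI, at least 12.4-fold lower. Lrp8os3-201, divergent from the reelin receptor gene Lrp8 at 213 bp, was at 27.5 and 15.7 in beta and 0 and 3.37 in PP cells, a ratio of 16.1 (4.40 to 134), and Lrp8 fell by 3.76 on the log2 scale. Dtnbos-201 changed by -3.49 ± 0.48, and here Dtnb passed at -1.42. Kcnq1ot1-201 was at 76.8 and 52.2 in PP cells, a change of -1.06 ± 0.28 (adjusted p = 0.0039) that was lost without PP replicate 2 or beta replicate 2.

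Few members were higher in PP cells. Prox1os-201 changed by 3.20 ± 0.42 and Gm28172-201 by 1.87 ± 0.42, while Prox1 at 0.73 did not pass (adjusted p = 0.052). C430014B12Rik-201, whose 5′ end overlaps that of the mitochondrial fission gene Mff, had 12.8 and 20.2 CPM in PP and only 0.433 and 1.59 in beta cells (4.26 ± 0.74, adjusted p = 6.7e-06). Mff was at 106 and 96.0 in PP and 111 and 83.7 in beta cells and did not pass at 0.37. Gt(ROSA)26Sor-201, the RNA of the Rosa26 locus used for transgenes, was at 61.7 and 80.8 in PP and 46.4 and 35.1 in beta cells (1.05 ± 0.28, adjusted p = 0.0044), and the call was lost without either PP library or beta replicate 2. Of the 37 lower members 33 had a tested neighbour, which was lower for 15 members and higher for 2.

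Endothelial and stellate cells together were compared with the mean of alpha, beta, delta and PP cells. Here 8 of 316 members were higher and 100 lower (2.53% and 31.6%), beside 10.4% and 19.2% of all transcripts. The median log2 fold change was -1.61 for members (-1.17 with the 35 members without an endothelial or stellate UMI at their bound) and -0.46 for all. Of their neighbours, 27 of 235 were higher and 46 lower (11.5% and 19.6%), beside 12.6% and 17.3% of gene sums. Of the 59 bidirectional transcripts tested 23 were lower and 0 higher. Without TMM scaling the median of all transcripts was 0.14 and the split of members 10 higher and 34 lower. Of all 14073 transcripts, 2232 were then higher and 1092 lower. By DESeq2 the split of members was 14 and 50, and without stellate replicate 1 the count was 66. The class named endothelial was mostly cluster 15 in replicate 2, with the duct markers given above. Without cluster 15, 5 members were higher and 98 lower, and 88 of these 103 were among the 108. Depth limited this comparison, since 1 UMI stands for 11.3 CPM in stellate replicate 2. The filter for testing also asks for a minimum of UMIs, which the small endothelial and stellate sums reach less easily. Of the 316 tested members, 35 had no endothelial or stellate UMI and 0 had no endocrine UMI. The split into higher and lower is thus not independent of which members could be tested.

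Several of the RNAs lower outside the endocrine cells were close to or at 0 there. Pcsk2os1-201 had no UMI in endothelial or stellate cells, at least 18.3-fold lower than the endocrine mean of pooled UMIs, while Pcsk2 was at 176 and 46.2 in endothelial and 676 and 1015 in stellate cells. Gm37459-201, antisense to the peroxisomal receptor-like gene Pex5l, was at 84.1 and 50.5 in beta and 106 and 47.7 in delta cells and had 1 UMI outside the endocrine types, a ratio of 39.5 (95% counting interval 7.07 to 1560). Gm20208-202, in the neuronal transcription factor gene Myt1l, was lower by a ratio of 36.5 (6.54 to 1444), and Myt1l fell by 4.15 on the log2 scale. Gm45486-201, inside the potassium channel regulator gene Abcc8, was lower by a ratio of 20.4 (3.64 to 806), and Abcc8 by 3.71 on the log2 scale. Gm15418-201 changed by -4.12 ± 1.08 while Col4a1 changed by 7.40, so the pair moved in opposite directions. Stellate cells alone had Gm15418-201 at 17.8 and 33.8, above beta and PP cells in both libraries, on 2 and 3 UMIs, and endothelial cells had none. Of the 100 lower members 86 had a tested neighbour, which was lower for 33 members and higher for 5.

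The higher members were few and rare. Gm12002-202 was at 99.6 and 9.25 in endothelial cells, a ratio of 615 (99.4 to 25376) on 1 endocrine UMI, and its neighbour Cobl had no UMI there. 9530026P05Rik-201, antisense to the metalloprotease gene Adamts9, was at 11.7 and 9.25 in endothelial and 26.7 and 11.3 in stellate cells (4.58 ± 0.96, adjusted p = 9.2e-05), but it had too few UMIs to be tested without cluster 15. Gm26674-201 changed by 3.07 ± 0.86 beside 3.23 for Sash1, but 99.6 in endothelial replicate 1 stood against 3.08 in replicate 2, and the call was lost without endothelial replicate 1 or stellate replicate 1.

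**Figure D5:**
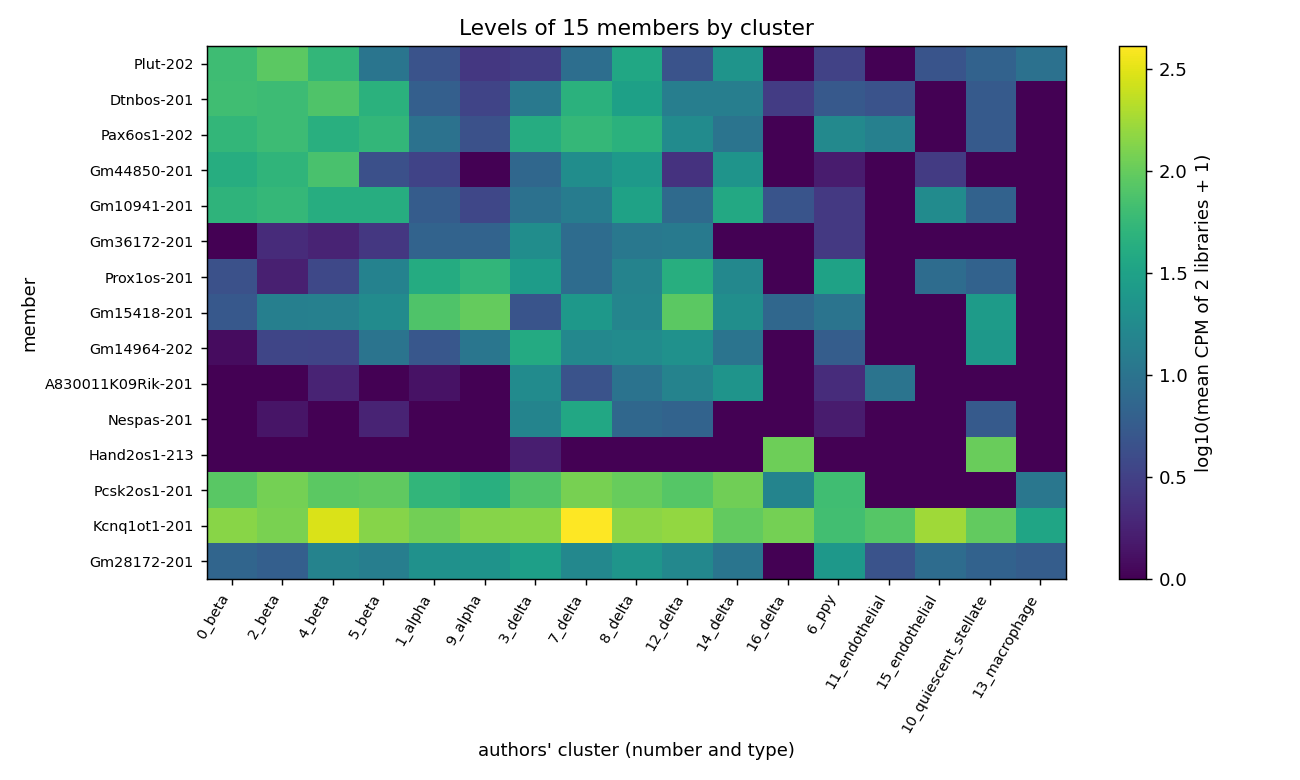
Levels of 15 members in the authors' clusters, as log10 of the mean CPM of both libraries plus 1, with clusters grouped by type. Plut-202 is bright in beta clusters 0, 2 and 4, Prox1os-201 in alpha and PP clusters, and Hand2os1-213 only in cluster 16, in stellate cells and faintly in delta cluster 3.

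A set of 3 lists places the members by the locus they sit in. The shares of all transcripts called, higher then lower, were 8.21% and 8.53% in alpha, 7.52% and 4.27% in delta and 7.62% and 9.62% in PP cells, and 10.4% and 19.2% outside the endocrine cells. Of 33 members beside islet transcription factor, hormone and secretory genes (20 genes), 25 had at least 10 UMIs and 14 were tested. Of these 2 were higher and 6 lower in alpha cells, 2 and 3 in delta cells, 2 and 3 in PP cells and 0 and 8 outside the endocrine cells. The higher ones were the Prox1 pair in every case. The list's median log2 fold changes in these comparisons were -0.60, -0.09, -0.72 and -3.01, beside 0.02, 0.03, -0.05 and -0.46 for all transcripts. 6430503K07Rik-201, beside the endocrine transcription factor gene Nkx2-2, was at 16.5 in both beta libraries and 10.5 and 11.8 in alpha cells and passed only outside the endocrine types, where it was at 0 and 18.5 in endothelial and 0 in stellate cells. Of 300 members whose symbols mark them as opposite-strand RNAs (205 genes), 36 were tested, with 6 higher and 4 lower in alpha cells, 3 and 2 in delta cells, 3 and 3 in PP cells and 0 and 13 outside the endocrine cells. Of 21 members of imprinted loci (5 genes) 5 were tested, with 1 higher in alpha cells (Airn-201), 1 higher in delta cells (Nespas-201), 1 lower in PP cells (Kcnq1ot1-201) and 2 lower outside the endocrine cells (Kcnq1ot1-201 and Tsix-201).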

How the data were processed

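Single-cell long-read UMI counts per transcript and per gene were deposited by the authors as whole numbers, with a table of each cell's cluster and type; they are raw counts. The submitters' processing notes name mm10 and Seurat, while the aligner, the counter, strand use and any doublet step are not given in the sources used here. No doublets were removed here, and only cells in the authors' cell table were kept. The tables were marked as a subset and cover the modified 5′ libraries only, and every per-sample column could be assigned. The members and lists were chosen with earlier results of these data known.

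Transcripts were matched to GENCODE M21 by identifier (69648 of 69994). The neighbour is the nearest protein_coding gene by the gap between gene bodies, opposite strand first on ties, and its level is the sum of its transcripts. The 6 types that held 20 or more cells in each library gave 12 UMI sums, 1 per type and library. These were fitted with edgeR 4.0.16 (R 4.3.3, limma 3.58.1): filterByExpr, TMM, quasi-likelihood F test, library as a block, Benjamini-Hochberg over all 14073 transcripts or 11237 gene sums, threshold 0.05, with 5 residual degrees of freedom. Every type comes from each library, so the library number pairs the sums by design. The standard error is the size of the log2 fold change divided by the square root of F. A member at 0 UMIs on a side was given a bound, with 3 UMIs summed over the libraries as the floor, and 1 to 3 UMIs a ratio of pooled CPM (UMIs scaled to 1000000) with an exact 95% interval for counting error. The script was tested on simulated counts.

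Members are named where they are among the 15 with the most UMIs, among the 10 largest rises or falls of a comparison in the same direction in each library, beside a listed islet gene with at least 10 UMIs, or at a listed imprinted locus, and the text gives values for some of these. Alternatives were another scaling, DESeq2 1.42.0, other filters, no block, the deposited gene table, transcript clusters, thinned totals, other delta classes, an endothelial class without cluster 15, another neighbour rule and leaving out each sum. Single UMIs are PCR-amplified molecules counted once, and intervals cover counting error only. Promoters and their bases are from RefSeq (GRCm38.p6). Some results that fall under these rules are not reported here.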

Additional observations from a re-analysis of the deposited data

Results flagged for a closer look

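Barcodes of the transcript tables that the authors' cell table does not list were outside every comparison, and members took a larger share of their UMIs than of the UMIs of kept cells. In replicate 1 the share was 1.55% (25357 of 1636778 UMIs) against 0.842% in kept cells, and in replicate 2 it was 1.98% (57513 of 2905058 UMIs) against 0.669%. There is no control sample, and the share that 3 counts would give is 0.000183% and 0.000103%. Gm15564-202 alone took 0.794% and 0.674% of these UMIs, and the other members 0.755% and 1.31%.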

How the results depend on the processing

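The number of members called moved with the settings. Without TMM scaling the count was 91 for alpha cells (main 55) and 44 for endothelial and stellate cells (main 108), where the all-transcript median also moved. The calls over all transcripts moved too, as given in those comparisons, and for the other settings below they are not given here. DESeq2 called 36 members for alpha, 15 for delta (main 39) and 64 for endothelial and stellate cells. With no replicate block, which drops the pairing of types by library, the counts were 28 for alpha, 13 for delta and 22 for PP cells (main 48), and those of coding neighbours 21, 9 and 17 (main 44, 30 and 52). Leaving out 1 sum at a time gave 31 to 39 for alpha, 9 to 20 for delta, 18 to 41 for PP, and 66 (without stellate replicate 1) to 115 for endothelial and stellate cells. Leaving out a whole library leaves 1 sum per type and no residual degrees of freedom, so it was not run as a test. Without coding exon overlap the members' mean share of UMIs was 0.405% in alpha (main 0.640%), 0.546% in beta (0.864%), 0.469% in delta (0.786%), 0.285% in PP (0.515%), 0.370% in stellate (0.585%) and 0.230% in macrophage cells (0.355%). In 4 alternatives chosen after seeing the data, leaving out Gm15564-202 gave 0.448%, 0.672%, 0.432% and 0.432% in alpha, beta, PP and stellate cells, leaving out cluster 16 gave 35 members for delta and 110 for endothelial and stellate cells, leaving out cluster 8 gave 46 and 98, and leaving out cluster 15 gave 103 for endothelial and stellate cells. Of the 76 results for named members, 40 kept direction and call under every setting run, and 3 reversed when cells were grouped by the authors' transcript clusters: Hand2os1-213 (log2 fold change -3.64), Hand2os1-210 (-4.51) and 2810468N07Rik-201 (-0.39), all delta against beta. The cause was not tested. Depth limits the rest: 2851 of the 3167 members had too few UMIs to be tested.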

Other observations

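Gm15564-202, the most abundant member, whose match to ribosomal RNA was not tested, was at 2522 and 1323 CPM in beta cells, 2461 and 1367 in alpha, 2331 and 917 in delta, 1102 and 563 in PP, 3204 and 293 in endothelial and 1743 and 1319 in stellate cells. Replicate 1 was the higher library in each of these types. Kpna1, with an internal annotated start 85 bp away, was at 24.5 and 19.7 in beta cells and 9.38 and 20.7 in alpha cells. The call of Gm15564-202 as lower in PP cells (log2 fold change -0.97 ± 0.32, adjusted p = 0.025) was lost without either PP library. Ghrl, the ghrelin gene next to Gm26982-201, was at 374 CPM in delta-labelled cells of replicate 1 and at 0 in replicate 2, while Gm26982-201 was at 0.515 and 2.85. A transcript not listed for a library was counted as 0 there, so the 0 of Ghrl need not be a measured absence.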
